A study of Mus musculus with 5 samples.

Results

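Of 186413 genomic regions holding a peak of RNA polymerase II in at least 1 of 5 mouse tissues, 1741 had a peak in lung and in spleen and none in brain, kidney or liver, which is 0.934% of all regions. A region is the window of 250 bp to both sides of each deposited peak position, with overlapping windows of all tissues merged. The 1741 regions were chosen by the peak lists of the 5 libraries, so the read counts of these libraries inside them describe the choice and do not test it. The study mapped the polymerase by chromatin immunoprecipitation and sequencing in whole lung, spleen, brain, kidney and liver of adult mice of strain FVB, to find active promoters. No treatment or allele is named for any of the 5 tissues, which were all crosslinked with 1% formaldehyde. The age in weeks, the sex and the number of animals per tissue were not stated in the labels. Each tissue had 1 library and no replicate, so no spread between animals and no p-value can be given.

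RNA polymerase II transcribes protein-coding genes and many regulatory RNAs. It gathers at gene starts, where it often pauses, is also found at enhancers, and is spread more thinly along the body of a gene being transcribed. Lung is an epithelial and vascular organ that also holds resident and circulating blood cells, and spleen is a lymphoid organ that filters blood, so both contain immune cells. In whole tissue, fewer cells with polymerase at a site and less polymerase per cell cannot be told apart, and no cell type was measured on its own.

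The libraries held 10846976 aligned reads for lung, 13283124 for spleen, 10292262 for brain, 13786536 for kidney and 14964934 for liver. The authors listed 72971 peak positions for lung, 31594 for spleen, 91712 for brain, 81375 for kidney and 57816 for liver. Spleen stood apart, since the scaling factor from regions with reads in every tissue was 0.671 while that from total reads was 1.06, so every spleen level depends on the scaling. In lung these factors were 1.13 and 0.867. Coordinates are as deposited; they fit the lengths of mouse build mm9 on 21 of 21 chromosomes, although the sources used here do not name the build. No gene annotation or genome of that build was used here, so regions are given by position, their genes and sequences were not analysed here, and the tissue labels were not checked against marker genes.

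Regions shared by lung and spleen alone were a small part of the lung peaks and a larger part of the spleen peaks. They made up 2.63% of the 66118 regions with a lung peak and 5.77% of the 30158 with a spleen peak. Among regions with peaks in exactly 2 tissues, they were 10.9% of the 16042 that had a lung peak and 40.04% of the 4348 that had a spleen peak. Spleen thus shared its pairwise regions with lung more often than with brain (1363 regions), kidney (792) or liver (452), while lung shared more with kidney (6571), brain (5709) and liver (2021). Lung has more listed peaks than spleen, which bears on both shares. Of the 15015 regions with peaks in both lung and spleen, 11.6% had no peak in the other 3 tissues.

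The lung and spleen peaks within a region mostly lay close together. In 1573 regions each tissue had 1 position, and the median distance between the nearest lung and spleen positions was 125 bp (quartiles 55 and 225 bp). It was at most 100 bp in 749 regions. Windows merge up to 500 bp, and 92 regions had positions more than 400 bp apart, with medians of 18.5 lung reads and 21 spleen reads. Just outside that limit were 77 adjacent pairs of a lung-only and a spleen-only region with positions 501 to 600 bp apart, with medians of 19 and 21 reads. The median width of a region was 641 bp, with quartiles of 561 and 791 bp.

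Most of the 1741 regions were weakly marked. A region held a median of 15 reads in lung (quartiles 12 and 20, lowest 4, highest 183) and 17 in spleen (14 and 23, lowest 5, highest 298). The medians were 6 reads in brain (3 and 8, lowest 0, highest 59), 8 in kidney (6 and 11, lowest 0, highest 69) and 7 in liver (5 and 10, lowest 0, highest 95). The ranges of all 5 tissues overlapped, so the absence of a listed peak in brain, kidney and liver did not mean an absence of reads. For scale, at the regions that all 5 tissues had a peak in the median was 51 reads in lung and 28 in spleen. Counts divided by the factors from shared regions are called normalised reads; their medians at the 1741 regions were 13.2 in lung, 25.4 in spleen, 5.81 in brain, 7.33 in kidney and 5.99 in liver.

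**Figure D1:**
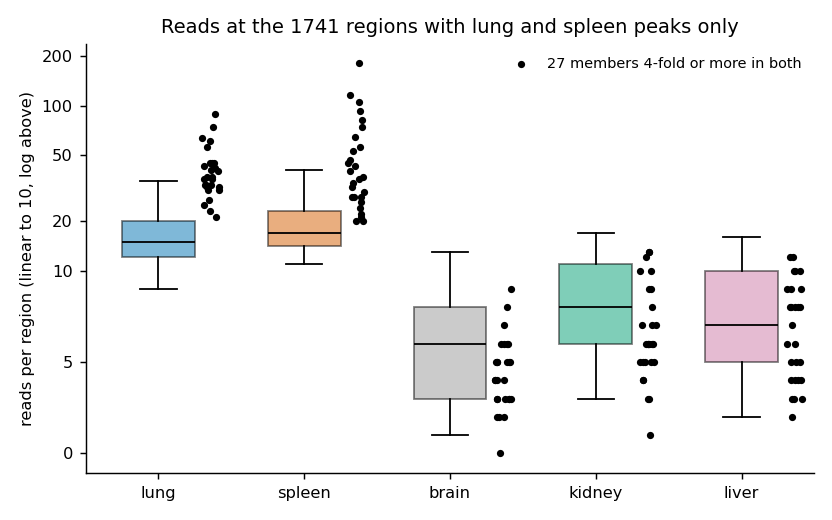
Reads per region (vertical axis, linear to 10 and logarithmic above) at the 1741 regions with lung and spleen peaks only. Boxes give quartiles and median, whiskers the 5th and 95th percentiles, and black points the 27 regions that were at least 4-fold higher in both lung and spleen. Medians were 15 in lung and 17 in spleen, against 6 in brain, 8 in kidney and 7 in liver.

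To set the pair against the rest in each region, the lower normalised count of lung and spleen was divided by the highest of brain, kidney and liver. This fold had a median of 1.52 (95% order-statistic interval 1.50 to 1.57), quartiles of 1.17 and 2.05, and a 95th percentile of 3.27. In 236 regions 1 of the other 3 tissues reached the lower of lung and spleen, and in 7 it reached the higher. The highest of the rest was kidney in 880 regions, liver in 504 and brain in 357. With scaling by total reads the median fold was 1.55, and these 2 numbers of regions were 209 and 45.

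A peak list has a threshold, and part of the regions lay near it in the tissues without a listed peak. The 5th percentile of reads in the 501 bp window of a tissue's own peaks was 7 in lung, 8 in spleen, 7 in brain, 9 in kidney and 10 in liver. Counted in 501 bp around the region's midpoint, 93.9% of the 1741 regions reached that level in lung and 94.3% in spleen. In the tissues without a peak it was reached by 22.9% in brain, 27.2% in kidney and 11.3% in liver. None of these 3 tissues reached it in 932 regions, and all 3 did in 28.

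The 5 libraries also differed in how reads were arranged around the midpoints. Within 250 bp of a midpoint, read density relative to the library's own density between regions was 8.64 in lung (95% Poisson interval 8.53 to 8.75), 7.01 in spleen (6.92 to 7.09), 3.26 in brain (3.19 to 3.33), 3.34 in kidney (3.28 to 3.40) and 2.64 in liver (2.59 to 2.70). "Between regions" means sequence at least 750 bp from any region of any tissue. This ratio is thus a further scaling, by each library's own background. That sequence held 76.7% of reads in spleen, against 63.9% in lung, 62.7% in brain, 65.4% in kidney and 66.9% in liver. A larger share there lowers the ratio, so spleen ratios depend on this choice too. Intervals throughout cover counting error only, and treat reads as separate molecules, which reads lacking molecular identifiers need not be. The density stayed above 1 in brain, kidney and liver too.

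Reads on opposite strands point at each other across a bound site, because fragments are sequenced from their ends. Of reads within 500 bp of the midpoints, 64.2% in lung (95% exact binomial interval 63.7% to 64.7%) and 65.0% in spleen (64.6% to 65.5%) pointed at the midpoint. The shares were 55.2% in brain, 55.1% in kidney and 54.0% in liver. At lung-only regions the share was 66.5% in lung and 53.9% in spleen, and at spleen-only regions it was 54.3% in lung and 70.5% in spleen. Where a tissue had no listed peak, its reads leaned towards the midpoint by less. The midpoints were set by peak positions of these same libraries. This lean, like the density above, therefore describes the choice of regions and does not test it.

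**Figure D2:**
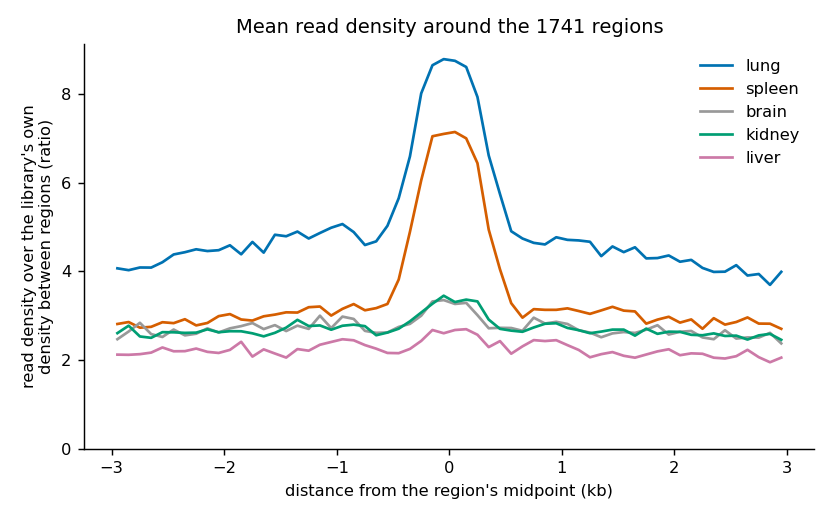
Mean read density in 100 bp bins (vertical axis, ratio to each library's own density between regions) against distance from the midpoint of the 1741 regions (horizontal axis, kb), 1 line per tissue. Within 250 bp of the midpoint the density was 8.64 in lung and 7.01 in spleen, against 3.26 in brain, 3.34 in kidney and 2.64 in liver.

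A smaller set stood clear of the other tissues. A region was called high in both when lung and spleen each held at least 20 reads and the fold of the lower over each of brain, kidney and liver was at least 4, with counts under 3 set to 3. Only 290 of the 1741 regions (16.7%) had 20 reads in both, and 27 (1.55%, 95% exact binomial interval 1.02% to 2.25%) were called, against 33 of all 186413 regions (0.0177%). The peak lists used the same reads, so the 27 are a description and their share is not read against that of all regions. With scaling by total reads 28 were called (0.0172% of all regions), of which 21 were among the 27. The count moved more with other choices: it was 43 with a minimum of 10 reads and 4 with 50, and 2 with windows of 100 bp to each side and 10 with 500 bp. At 2-fold there were 151 regions (0.135% of all regions; 157 with total reads, against 0.116%), and at 8-fold there was 1 (0.00107%; 2 with total reads, against 0.00161%). Counted by the same 4-fold rule, high regions were 0.441% of the regions with peaks in lung and kidney only (1.26% with total reads), 1.77% of those in spleen and liver only (0.664%) and 7.66% of those in kidney and liver only (7.56%).

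The 27 regions lay in 24 places on 14 chromosomes, a place being regions with gaps of up to 5 kb. They held 21 to 89 reads in lung (median 37) and 20 to 181 in spleen (median 37), against 0 to 9 in brain (median 4), 1 to 13 in kidney (median 6) and 2 to 12 in liver (median 7). Over these regions, the lowest lung and spleen counts were above the highest counts in brain, kidney and liver. This largely follows from the rule that chose them, with its minimum of 20 reads and its 4-fold lead. The folds spanned 4.05 to 8.51, and the lower bound of the 95% exact conditional binomial interval was above 2 in 18 of the 27. The tissues compared were picked by their counts and the regions kept by this same fold. The intervals do not allow for that choice.

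With this scaling and read counting, the region with the largest fold was chr10:116712956-116713531, with 33 reads in lung and 22 in spleen, against 3 in brain, 1 in kidney and 4 in liver. The lower of lung and spleen was 8.51-fold (95% exact conditional binomial interval 3.03 to 33.0) above the highest of the rest. The rank depends on the setting, since with scaling by total reads its fold was 5.68, below 8.70 at chr11:87571766-87572311 and 8.55 at chr11:106175496-106176076. Its interval is wide and rests on 4 liver reads, and the nearest lung and spleen positions were 75 bp apart. Next was chr14:70575341-70576071, with 74 reads in lung and 43 in spleen, against 9 in brain, 6 in kidney and 8 in liver. Its fold was 7.36 (3.54 to 17.2), but 3.70 with scaling by total reads. Lung and spleen were level there after scaling by shared regions, at 65.3 and 64.1 normalised reads.

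The strongest of the 27 by reads was chr11:87571766-87572311, with 89 reads in lung and 181 in spleen, against 3 in brain, 13 in kidney and 8 in liver. Its fold was 6.59 (3.67 to 12.9), with spleen the higher of the pair under both scalings. It belonged to a place of 5 regions, in which chr11:87570266-87570911 was also high, with 45 reads in lung and 82 in spleen, against 5 in brain, 9 in kidney and 10 in liver. Just before the second of these lay a region that the peak lists gave to lung alone, chr11:87569666-87570166. It held 33 reads in lung and 37 in spleen, against 0 in brain, 0 in kidney and 3 in liver, so it held more reads in spleen than in lung although spleen had no listed position there. It was 1 of 6 regions that met the 4-fold rule without being among the 1741; 3 of these had peaks in all 5 tissues.

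A second region on chromosome 11, chr11:106175496-106176076, leaned to spleen, with 31 reads in lung and 93 in spleen, against 3 in brain, 3 in kidney and 5 in liver. The fold was 6.39 (2.46 to 21.1). On chromosome 8, chr8:26212956-26213676 held 41 reads in lung and 30 in spleen, against 5 in brain, 6 in kidney and 3 in liver, with a fold of 6.58 (2.78 to 19.0). Normalised lung over spleen was 0.809 (0.493 to 1.34) at this region, and 1.67 with scaling by total reads, so which of the pair led there changed with the scaling.

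The other 5 of the 10 largest folds lay between 5.14 and 5.97. On chromosome 17, chr17:34422821-34423346 had 31 reads in lung and 20 in spleen, against 2 in brain, 5 in kidney and 5 in liver, and its fold of 5.97 (2.30 to 19.7) dropped to 1.46 when reads expected from the flanks 1 to 5 kb away were subtracted. Those flanks hold other regions of the same place, such as chr17:34418221-34419096 with 56 reads in lung and 65 in spleen. Reads of neighbouring lung and spleen regions were thus subtracted with the background. On chromosome 15, chr15:60018121-60019086 had 37 reads in lung and 37 in spleen, against 6 in brain, 3 in kidney and 4 in liver. It was 1 of the 92 regions with wide spacing, its nearest lung and spleen positions being 465 bp apart. On chromosome 1, chr1:195027371-195028091 had 33 reads in lung and 45 in spleen, against 2 in brain, 6 in kidney and 2 in liver. On chromosome 18, chr18:60963951-60964691 had 61 reads in lung and 53 in spleen, against 5 in brain, 8 in kidney and 12 in liver. It had more reads than the others of these 5 and a narrower interval, 5.24-fold (2.79 to 10.7). The last, chr16:92644621-92645341, had 32 reads in lung and 20 in spleen, against 0 in brain, 6 in kidney and 6 in liver, and its fold of 5.14 (2.12 to 15.0) was 3.46, under the 4-fold rule, with scaling by total reads.

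**Figure D3:**
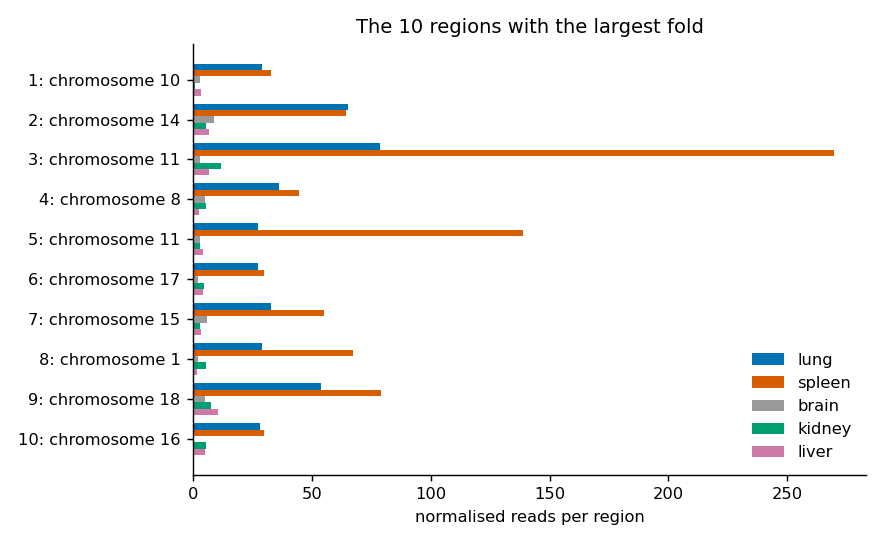
Normalised reads (horizontal axis) in lung, spleen, brain, kidney and liver at the 10 regions with the largest fold, named by rank and chromosome, with 1 bar per library and no error bar. The region ranked 3, on chromosome 11, reached 78.5 normalised reads in lung and 269.9 in spleen, against 11.9 in kidney, the highest of the rest.

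The 17 further regions of the 27 had folds of 4.05 to 5.09. On chromosome 18, chr18:60963291-60963801 held 36 reads in lung and 56 in spleen, against 3 in brain, 4 in kidney and 9 in liver, next to the region above. On chromosome 17, chr17:34418221-34419096 held 56 reads in lung and 65 in spleen, against 4 in brain, 12 in kidney and 8 in liver, in the same place as the region above. These 2 and the pair on chromosome 11 were the only cases of 2 high regions in 1 place. A further region of chromosome 17, chr17:34482331-34483331, held 40 reads in lung and 47 in spleen, against 4 in brain, 9 in kidney and 8 in liver. Of the remaining regions, chr15:74762891-74764386 held the most reads, with 64 in lung and 116 in spleen, against 4 in brain, 13 in kidney and 12 in liver, a fold of 4.74 (2.59 to 9.38). Next in reads was chr9:108953786-108954576, with 42 in lung and 106 in spleen, against 8 in brain, 10 in kidney and 10 in liver. Spleen was the higher of the pair in both under both scalings. On chromosome 10, chr10:22021376-22021951 held 43 reads in lung and 34 in spleen, against 6 in brain, 5 in kidney and 9 in liver. On chromosome 7, chr7:150190681-150191731 held 36 reads in lung and 40 in spleen, against 7 in brain, 6 in kidney and 9 in liver. Of the 27, 14 had no other of the 1741 regions within 5 kb.

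Some of the regions were neighbours of each other, which bears on how many separate sites they stand for. Another region of lung and spleen only lay within 5 kb of 24.5% of them. The share with a neighbour of the same class was 48.1% for lung-only, 20.1% for spleen-only and 28.6% for regions of all 5 tissues. Those classes are larger, with 21742, 11328 and 8641 regions, which bears on these shares. A region of lung and spleen only lay within 5 kb of 5.44% of lung-only, 6.52% of spleen-only and 2.56% of all-5-tissue regions. The 1741 regions formed 1479 places, of which 1314 held 1 region, 119 held 2 and 46 held 3 or more. The 46 held 189 of the 1741 regions.

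Of the 8 places with the most regions, 2 stood out in reads. The first was 11.0 kb of chromosome 18, chr18:60963291-60974241, with 6 of the regions, 2 of them high. It held 683 reads in lung and 1110 in spleen, against 107 in brain, 203 in kidney and 178 in liver, a fold of 3.24 (2.77 to 3.81). With scaling by total reads this place had a fold of 4.28 (3.65 to 5.03). Every one of its 6 regions had at least 32 lung reads and at least 40 spleen reads, and none exceeded 11 reads in brain, 20 in kidney or 14 in liver. The second was 6.78 kb of chromosome 17, chr17:34418221-34424996, also with 6 regions of which 2 were high. It held 263 reads in lung and 337 in spleen, against 35 in brain, 67 in kidney and 63 in liver, a fold of 3.78 (2.88 to 5.02). With scaling by total reads this place had a fold of 4.99 (3.80 to 6.63). Part of the reads of both places lay outside the 6 regions. Inside them were 243 lung and 411 spleen reads of the place on chromosome 18, and 194 lung and 251 spleen reads of the place on chromosome 17. The place on chromosome 18 also holds chr18:60972401-60973296, which had a peak in all 5 tissues and met the 4-fold rule, with 104 reads in lung and 155 in spleen, against 15 in brain, 25 in kidney and 22 in liver.

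The place with the most regions, 9 in 23.3 kb of chromosome 18 (chr18:80844391-80867641), was weak by comparison. It held 390 reads in lung and 418 in spleen, against 138 in brain, 224 in kidney and 229 in liver, a fold of 1.68 (1.42 to 1.99). With scaling by total reads this place had a fold of 1.94 (1.64 to 2.29). No region of it was high, and none had more than 25 lung reads or 28 spleen reads. The next, 8 regions in 17.7 kb of chromosome 4 (chr4:63022831-63040531), held 486 reads in lung and 397 in spleen, against 162 in brain, 198 in kidney and 207 in liver, a fold of 2.36 (2.00 to 2.80). With scaling by total reads its fold was 1.90 (1.58 to 2.29), with spleen the lower of the pair and brain the highest of the rest.

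Some places adjoined strong signal of another tissue. Near the place of 6 regions on chromosome 8, chr8:123261041-123279041, the densest 500 bp of liver held 103 reads, 9.75 kb before the centre and so just outside the place. The densest 500 bp inside the place held 18 reads in lung and 31 in spleen, against 5 in brain, 16 in kidney and 12 in liver. The fold over the whole place was 1.22 (1.05 to 1.43), with kidney, at 300 reads, nearest to lung, at 381. This fold was 1.61 (1.38 to 1.88) with scaling by total reads. On chromosome 4, the densest 500 bp of liver, 33 reads, lay 13.75 kb before the centre of the place and outside it. The remaining 3 of the 8 places, 2 on chromosome 10 and 1 on chromosome 5, had folds of 1.61 to 1.84. With scaling by total reads these 3 had folds of 1.83 to 2.38.

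**Figure D4:**
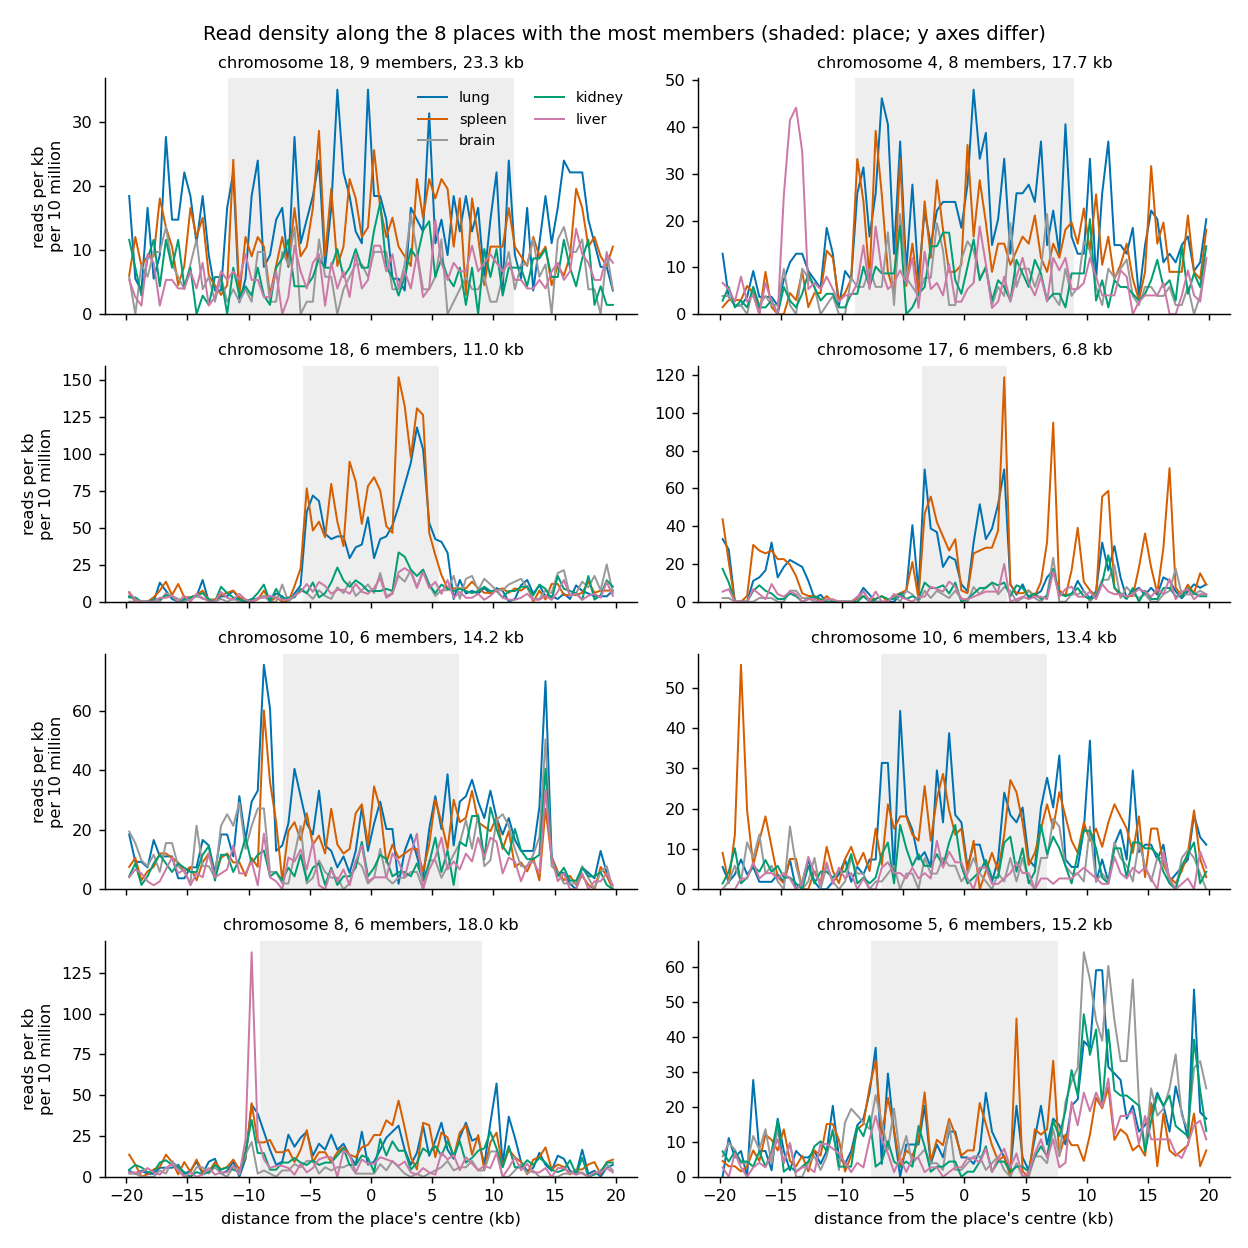
Reads per kb, scaled to 10000000 aligned reads, in 500 bp bins (vertical axes, which differ between panels) against distance from the centre of each of the 8 places with the most regions (horizontal axis, kb), 1 line per tissue, with the place shaded. In the 11.0 kb place on chromosome 18 the highest bin was 118 in lung and 152 in spleen, against 21.4 in brain, 33.4 in kidney and 22.7 in liver; next to the place on chromosome 8 the highest line is liver, at 138.

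The balance of lung and spleen depended on the scaling. Normalised by shared regions, lung over spleen had a median log2 ratio of -0.96 (95% order-statistic interval -0.99 to -0.92) over the 1741 regions, and lung was higher in 107 of them (6.15%). With scaling by total reads the median was 0.093 (0.064 to 0.127), and lung was higher in 991 (56.9%). The 2 scalings differ by 1.05 on the log2 scale for this ratio in every region. A difference between sets of regions does not depend on that choice, but its size depends on the set compared. The median of the 1741 was lower by 0.97 than that of regions with peaks in all 5 tissues (a log2 difference of -0.97). The latter median was 0.014 under the first scaling and 1.06 under the second. Its nearness to 0 is partly set by the first scaling, which rests on shared regions. Over all regions the median was -0.444 and 0.605, so the 1741 lay below it by less. Among regions with 20 reads in both tissues, medians under the first scaling were -0.869 for the 1741 and -0.118 for all regions. At the 1741, both tissues had to have a listed peak, from lists of different length and threshold, so these differences are a description.

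The spread of this ratio around its median was wide, with an SD across regions of 0.63 on the log2 scale. Among the 290 regions with 20 reads in both tissues, lung was at least 2-fold over spleen in 2, against 5.2% of all 10893 regions with 20 reads in both. Spleen was at least 2-fold over lung in 110 (37.9%), against 8.81%. With scaling by total reads these numbers were 22 for lung, against 45.9%, and 14 for spleen, against 0.753%. Which tissue led in most regions thus changed with the scaling, while the order of the regions did not.

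The region leaning most to lung was chr2:117943316-117944316, with 119 reads in lung and 20 in spleen, and 15 in brain, 15 in kidney and 3 in liver. Normalised lung over spleen was 3.52 (2.18 to 5.97) there. On chromosome 4, chr4:94719281-94720171 held 183 reads in lung and 35 in spleen, but also 59 in brain, 69 in kidney and 95 in liver. This region had a listed peak in lung and spleen only, while brain, kidney and liver all exceeded spleen in normalised reads, and its fold of the pair over the rest was 0.642 (0.423 to 0.955). Next were 2 regions of the same place on chromosome 8: chr8:86260596-86261496, with 67 reads in lung and 22 in spleen, against 4 in brain, 8 in kidney and 11 in liver, and chr8:86254496-86255546, with 76 in lung and 30 in spleen, against 20 in brain, 23 in kidney and 11 in liver. The fifth, chr5:32448976-32450211, held 48 reads in lung and 21 in spleen, against 16 in brain, 21 in kidney and 19 in liver, and its lung over spleen ratio of 1.35 (0.795 to 2.38) had an interval that included 1 under the first scaling, while with scaling by total reads the ratio was 2.80.

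At the other end, chr12:114659806-114661556 held 52 reads in lung and 298 in spleen, against 14 in brain, 16 in kidney and 27 in liver. Normalised lung over spleen was 0.103 (0.0754 to 0.139). Its neighbour chr12:114661836-114662686 held 39 reads in lung and 157 in spleen, against 6 in brain, 15 in kidney and 7 in liver. These 2 lay in a place of 5 of the regions, where chr12:114663436-114664156 was high in both, with 32 reads in lung and 74 in spleen, against 2 in brain, 4 in kidney and 8 in liver. Spleen led in all 3, under both scalings. The other spleen-leaning regions were chr13:52744366-52745666, with 27 reads in lung and 140 in spleen, chr6:70676321-70677551, with 33 and 152, and chr7:51786441-51787946, with 28 and 99. Their highest count in brain, kidney or liver was 21 reads, in kidney on chromosome 6, and all 3 stayed below 1 for lung over spleen with scaling by total reads, at 0.236, 0.266 and 0.346.

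Reads outside the peak windows did not enter the choice of regions directly, so the sequence around the 1741 regions was examined between regions, at least 750 bp from any region of any tissue. Such sequence under 2 kb from one of the 1741 regions had a density of 2.14 in lung (95% Poisson interval 2.09 to 2.18), 1.77 in spleen (1.73 to 1.80), 1.65 in brain (1.61 to 1.69), 1.70 in kidney (1.66 to 1.73) and 1.50 in liver (1.47 to 1.53), relative to each library's average between regions. At 5 to 10 kb it was 1.83 in lung and 1.58 in spleen, against 1.52 in brain, 1.58 in kidney and 1.42 in liver, so spleen and kidney were level there. At 50 to 100 kb it was 1.45 in lung and 1.29 in spleen, against 1.36 in brain, 1.39 in kidney and 1.28 in liver. Under 2 kb from the regions lung and spleen were therefore the highest of the 5, and at 50 to 100 kb lung still was, while spleen lay below brain and kidney. All 5 tissues were above their own average near the regions. Lung was also the highest under 2 kb from lung-only regions (2.13), regions of lung and kidney only (2.28) and spleen-only regions (1.50). Near regions of all 5 tissues it was 1.80, against 1.81 in kidney. Spleen was 1.44 near lung-only and spleen-only regions, 1.43 near those of lung and kidney only and 1.46 near those of all 5 tissues. Near spleen-only regions lung and spleen were also the highest of the 5.

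Taken region by region, 1332 of the 1741 had enough such sequence (at least 5000 bp within 10 kb) and reads (at least 20 over the 5 tissues). In 472 of the 1332 (35.4%, 95% exact binomial interval 32.9% to 38.1%) lung and spleen, each relative to its own average, were both above brain, kidney and liver, against 6.68% of 127753 regions of all classes. The share was 12.5% (12.0% to 13.0%) around lung-only regions, 21.2% (20.4% to 22.0%) around spleen-only regions, 6.73% (5.96% to 7.57%) around regions of lung and kidney only, and 6.82% (6.22% to 7.47%) around regions of all 5 tissues. These shares are a description: the intervals treat regions as independent, while neighbouring regions share part of the sequence and the reads come from the same libraries as the peaks. By at least 1.5-fold, lung and spleen were both above the rest around 34 of the 1332 (2.55%), against 0.194% of all regions. Of the 27 high regions, 19 had enough sequence and 9 had lung and spleen above the rest.

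**Figure D5:**
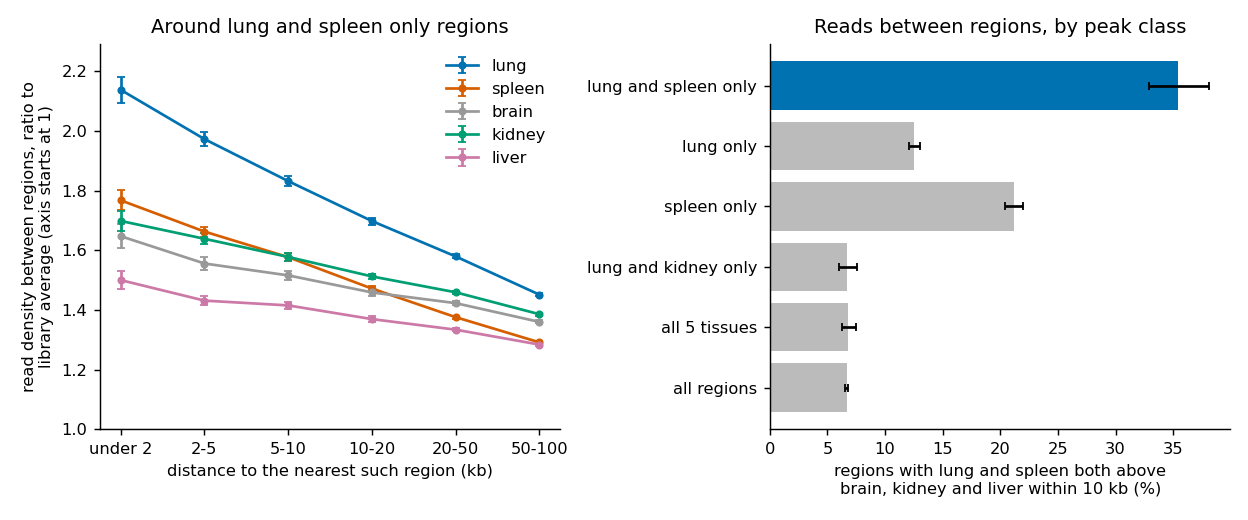
Left, read density between regions (vertical axis, ratio to each library's average, starting at 1) by distance to the nearest of the 1741 regions (horizontal axis, kb), with 95% Poisson intervals. Right, the share of regions (horizontal axis, %, with 95% exact binomial intervals) with lung and spleen both above brain, kidney and liver in reads between regions within 10 kb, by tissues with a peak; it was 35.4% for lung and spleen only and 6.68% for all regions.

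Regions of lung alone and of spleen alone lay close by. Within 5 kb of the 1741 regions, 45.7% had a lung-only region (95% exact binomial interval 43.3% to 48.0%), 33.3% a spleen-only region and 24.5% another region of lung and spleen only. Brain-only regions were found near 13.8%, kidney-only near 12.4% and liver-only near 6.66%. For comparison, 8.96% of lung-only regions had a spleen-only region within 5 kb, and so did 6.45% of regions of lung and kidney only, while 42.5% of regions of lung and kidney only had a lung-only one nearby. Of regions of lung and kidney only, 48.7% had a kidney-only region within 5 kb. Nearness to single-tissue regions of the same tissues was thus not particular to lung and spleen.

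The 1741 regions lay on 19 autosomes and X. Chromosome 1 held 119, the most. As a share of all regions of a chromosome they ranged from 1.37% on chromosome 17 (95% exact binomial interval 1.11% to 1.66%), with 100 regions, to 0.634% on X (0.474% to 0.830%), with 52. None of the 74 regions on Y was among them, which allows a share of up to 4.86% by the exact interval.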

How the data were processed

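Per the labels' protocols, chromatin of 5 freshly dissected tissues was precipitated with an antibody against the polymerase from Abcam, and 1 library per tissue was sequenced. The authors deposited, per tissue, a list of aligned reads and a list of peak positions without width, score or p-value; these positions and strands are no measured unit, and other than Bowtie, per the submitters' processing notes, the sources used here name no aligner version, caller, threshold, control or build. No input library was used here. Reads of 34 to 36 bases were counted once, at the 5′ end; 4 to 15 lines per library were left out. In the regions studied, 10.4% of reads in lung and 13.1% in spleen repeated the position and strand of another, against 7.51% in brain, 4.90% in kidney and 8.16% in liver. Libraries were scaled by the median of ratios, taken over the 8222 regions in which all tissues held 20 reads or more (1.13 in lung, 0.671 in spleen, 1.03 in brain, 1.09 in kidney, 1.17 in liver). Log2 ratios had 0.5 reads added.

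The regions, lists and rules were chosen with earlier results of these data known. The named regions are the 10 with the largest fold among those with 20 reads in both tissues, the 8 places with the most regions, and the 5 regions each with the largest lung over spleen and spleen over lung ratio; the lung-only region on chromosome 11, and the further regions of the 27 that are named, were singled out after their values were seen. Counting was tested on simulated data. Software was SciPy 1.17.1, pandas 2.3.3 and NumPy 2.4.6 under Python 3.11.15; figures were drawn with Matplotlib 3.10.9.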

Additional observations from a re-analysis of the deposited data

How the results depend on the processing

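The number of regions with lung and spleen peaks only was 1753 with windows of 100 bp to each side, 1496 with 500 bp, 1666 when brain, kidney and liver also had to hold under 20 reads, and 1562 with 31594 peaks per tissue, of which 602 overlapped one of the 1741 regions. The 27 high regions became 43 with a minimum of 10 reads and 4 with 50, 151 at 2-fold and 1 at 8-fold, and 2 with windows of 100 bp and 10 with 500 bp; other settings gave 18 to 28. The median log2 ratio of lung over spleen, -0.96, became 0.093 with scaling by total reads, -0.88 when repeats of a position and strand were dropped, -0.92 after thinning, -1.24 after background subtraction, and -0.87 over regions with 20 reads in both. The share with lung and spleen above the rest between regions was 35.4%, against 6.68% of all regions. It was 30.1% within 5 kb, against 6.72%, and 29.4% at 2 kb from every region, against 7.96%. For regions alone in their place it was 30.9%, against 6.68%. These alternative settings were added after seeing the data. Apart from the scaling factors, the cause of these changes was not tested. Of 50 alternative folds of the 10 named regions, 49 lay within the counting interval and the range was 1.46 to 12.2. The intervals are wide, so lying within them says little about stability. With scaling by total reads, folds of 3.70 on chromosome 14 and 3.46 on chromosome 16 lay within them but under the 4-fold rule. Motifs, gene starts and gene lists were not run, with no annotation or genome of the build used here. No paired analysis was possible because each tissue has 1 library, and for the same reason no replicate could be left out. Depth limits what can be said of single regions, with medians of 15 lung and 17 spleen reads.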
